A study of Mus musculus with 4 samples.

Results

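Etv2-positive early endothelial progenitors were examined in 4 libraries of mouse embryo cells, made by droplet single-cell RNA-seq. A barcode was taken as a member when it held at least 3 UMIs (unique molecular identifiers, each standing for 1 captured transcript) of Etv2, Tal1 and Lmo2 together, at least 1 of them from Etv2, no more than 2 UMIs of Cdh5 and Pecam1 together and no more than 2 of Epcam. By this rule 462 of 14243 barcodes were members, made up of 157 of 1434 in Ctrl and 108 of 1090 in cKO at E8.5, with 117 of 5453 and 80 of 6266 at E9.5. Wherever 4 values stand in a row, they are those of Ctrl E8.5, then cKO E8.5, then Ctrl E9.5, then cKO E9.5. The 6 genes of the rule chose the cells, so their values describe the choice and support nothing.

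All libraries came from Swiss Webster embryos in which Cre, knocked into the Tbx1 locus, switches on GFP from a Rosa26-GFPflox allele, and living GFP-positive cells (DAPI-negative) were sorted. Ctrl embryos were Tbx1Cre/+;Rosa26-GFPflox/+, so the controls also carried 1 Tbx1 copy disrupted by Cre, and cKO embryos were Tbx1Cre/flox;Rosa26-GFPflox/+, so the remaining copy is lost only where Tbx1 itself drives Cre. The tissue was the rostral part of the embryo at E8.5 and the pharyngeal apparatus with the heart at E9.5, and stage and dissection cannot be told apart. The study's sample table lists the E9.5 tissue as taken with the back. Several embryos were pooled into 1 library per group, so no difference between groups has a replicate check, no p-value is given, and the 95% intervals cover counting error only.

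ETV2 is an ETS transcription factor that stands at the start of endothelial and blood specification from mesoderm and is switched off again as endothelial cells mature. TAL1 is a basic helix-loop-helix factor and LMO2 the LIM protein that bridges it to GATA factors at haemato-endothelial enhancers. KDR is the main receptor for vascular endothelial growth factor on endothelial precursors, HHEX is a homeobox factor of early endothelium and endoderm, and VE-cadherin (Cdh5) and PECAM1 are junction proteins of formed endothelium. The pharyngeal and cardiac mesoderm that expresses Tbx1 contributes endothelium to the pharyngeal arch arteries and the endocardium.

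The median number of UMIs per member was 19858, 26768, 17534 and 18494.5, against library medians from 15910.5 to 23984 over all barcodes. No barcode was a member in 2 libraries, although the E9.5 libraries shared 55 barcodes in all and the other pairs 2 to 10. The cKO E9.5 library had been counted on a longer gene table than the rest, so only the 27514 gene identifiers common to all 4 libraries were used. Levels are given as UMIs per 1000000 UMIs of the same group of cells (UPM). The targeted gene Tbx1 was at 74.4, 79.8, 76.3 and 106 UPM in the members, and so was not lower in the cKO members. The reads are tags of the transcript's 3′ end, and whether the flox allele removes that part was not examined, so Tbx1 does not check the genotype labels. Its cKO/Ctrl log2 ratio was 0.10 (-0.16 to 0.36) at E8.5 and 0.47 (0.15 to 0.79) at E9.5 in the members, beside 0.48 and 0.31 in the other cells.

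Among the values that chose the members, Etv2 (chr7:30633616-30636509, GRCm38.p6) was at 589, 627, 471 and 496 UPM, with a median of 7, 10.5, 5 and 7 UMIs per cell and at most 103. Tal1 (chr4:115056426-115071755) was at 79.1, 86.6, 139 and 62.3 UPM and had a UMI in 46.5, 53.7, 64.1 and 37.5% of the members. Lmo2 (chr2:103957903-103981878) was at 225, 306, 513 and 357 UPM and had a UMI in 80.9, 86.1, 94.9 and 81.3% of them. Members with no UMI of either Tal1 or Lmo2 numbered 27, 13, 6 and 12, and members with exactly 1 Etv2 UMI 15, 9, 24 and 14. A UMI of Etv2 alone is no mark of these cells, since it was found in 33.2, 26.3, 7.61 and 5.59% of all barcodes, and in 21.4, 25, 1.10 and 2.99% of Epcam-positive cells (14, 12, 728 and 201 cells, median UMIs 17214.5, 24755, 18720 and 18481).

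The limits of the rule fell inside a gradient. Barcodes just outside the lower limit, with 2 UMIs of Etv2, Tal1 and Lmo2 together, numbered 75, 41, 23 and 26 and held Kdr at 27.4, 50.5, 49.6 and 3.5 UPM. Members just inside it, with 3 UMIs, numbered 24, 8, 12 and 16 and held Kdr at 66.8, 117, 33.1 and 53.9 UPM, so the order was the other way in Ctrl E9.5. Members at the upper limit, with 2 UMIs of Cdh5 and Pecam1, numbered 5, 4, 22 and 9 and held Kdr at 173, 349, 134 and 185 UPM. Barcodes just above it, with 3 such UMIs, numbered 6, 3, 23 and 5 and held Kdr at 81.2, 242, 202 and 197 UPM, and over that limit 15, 9, 142 and 16 barcodes otherwise met the rule. The Epcam limit left out 1 barcode in all, in Ctrl E9.5.

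At E8.5 members made up 10.9% (9.38 to 12.7) of the barcodes of the Ctrl library and 9.91% (8.20 to 11.8) of those of the cKO library, a difference of -1.04 percentage points (-3.41 to 1.40) that was within counting error. At E9.5 the shares were 2.15% (1.78 to 2.57) and 1.28% (1.01 to 1.59), a difference of -0.869 points (-1.36 to -0.400) that was larger than counting error, with no replicate check. For members with no Cdh5 or Pecam1 UMI the difference was -0.393 points (-0.809 to 0.0067), which was within counting error. Thinning each cell to 10000 UMIs gave 9.47, 8.65, 2.65 and 0.973%, with 135, 84, 555 and 718 shallower barcodes left out. Thinning also lowers the UMIs of Cdh5, Pecam1 and Epcam, so barcodes above those limits can become members. In Ctrl E9.5 it gave 130 members against 117, so it is not a check of depth alone. Cells with 3 or more UMIs of Cdh5 and Pecam1 and no more than 2 of Epcam, called Cdh5/Pecam1-positive cells here, were 1.46% (0.909 to 2.23), 1.19% (0.637 to 2.03), 5.78% (5.17 to 6.43) and 1.10% (0.858 to 1.39) of the barcodes, that is 21, 13, 315 and 69 cells. The cKO minus Ctrl difference of this share at E9.5 was -4.68 points (-5.37 to -4.02). Members were 88.2% (82.5 to 92.5) and 89.3% (82.3 to 94.2) of the sum of both kinds of cells at E8.5, and 27.1% (22.9 to 31.5) and 53.7% (45.3 to 61.9) at E9.5. The sorted tissue differed between the stages, so the lower shares of members at E9.5 and the dissection cannot be told apart.

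**Figure D1:**
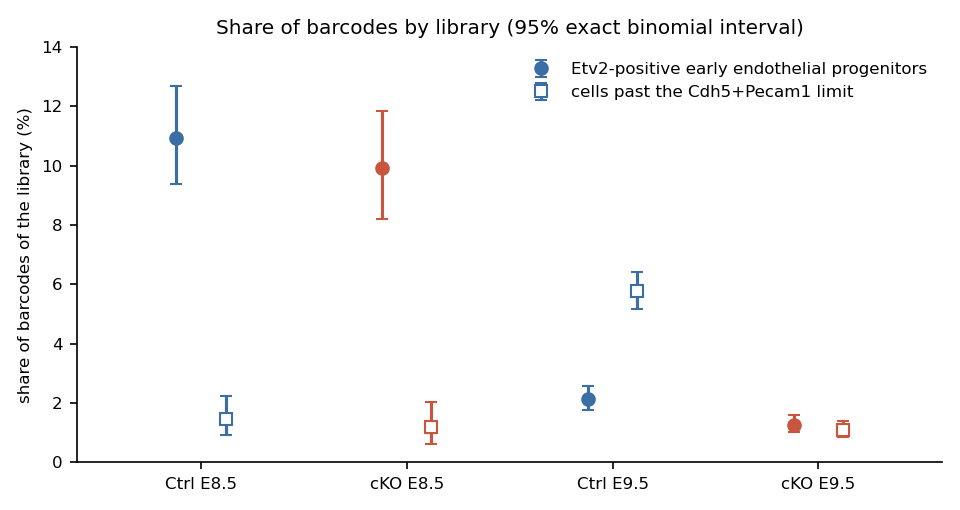
Share of all barcodes (percent) that were Etv2-positive members or Cdh5/Pecam1-positive cells in each of the 4 libraries; filled points are members, open squares Cdh5/Pecam1-positive cells, the axis starts at 0 and error bars are exact 95% binomial intervals, counting error only. Members fill 10.9 and 9.91% at E8.5 and 2.15 and 1.28% at E9.5, while Cdh5/Pecam1-positive cells fill 5.78 and 1.10% at E9.5.

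Kdr and Hhex are the markers given for these cells that the rule left unused, so they check the label, and both were far higher in the members than in the remaining barcodes of every library. Kdr (chr5:75932827-75979072) was at 164, 249.5, 177 and 139 UPM in the members and at 21.3, 20.7, 5.97 and 4.26 UPM in the other cells, which are all barcodes outside the members and the Cdh5/Pecam1-positive cells. It had a UMI in 83.4, 89.8, 87.2 and 70.0% of the members against 14.3, 16.7, 4.53 and 6.97% of the Epcam-positive cells. Hhex (chr19:37434841-37440731) was at 142, 188, 209 and 165 UPM against 5.65, 3.72, 2.75 and 1.13 UPM in the other cells. Its UMIs were found in 60.5, 73.1, 68.4 and 58.8% of the members and in 0, 25, 2.20 and 1.49% of the Epcam-positive cells, where 0 of 14 cells, taken as 3 counts, allows a share of cells with a UMI of up to 21.4%. In both genes the lowest library of members was above the highest library of other cells.

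Against the other cells of the same library, 29 of the 38 vascular genes with enough UMIs were more than 2-fold higher in all 4 libraries and 0 were lower, beside 1.85% of all genes higher and 0.785% lower. The vascular genes are 43 endothelial transcription factors, receptors with their signal genes, and genes of differentiated endothelium, and a gene was counted when at least 20 UMIs stood behind each ratio. Because Etv2, Tal1 and Lmo2 mark vascular cells, such genes are partly chosen with the members, and the counts are a description. The transcription factors contributed 8 of 13, the receptors and signal genes 11 of 14 and the genes of differentiated endothelium 10 of 11.

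The genes that ranked highest over the other cells included factors of early endothelium beside Hhex. Sox17, an SRY-box factor of arterial endothelium and endoderm, was at 38.2, 69.2, 117 and 52.8 UPM against 1.35, 0.403, 1.52 and 0.304 UPM in the other cells. Sox7 was at 11.5, 18.0, 32.7 and 10.7 UPM, and Sox18 at 22.9, 51.5, 40.4 and 45.3 UPM, both near 1 UPM or less in the other cells. Fev, an ETS factor best known from serotonergic neurons, was at 17.3, 24.5, 20.9 and 22.6 UPM in the members, at 11.7, 12.9, 4.37 and 3.27 UPM in the Cdh5/Pecam1-positive cells and below 1 UPM elsewhere. C1ql2, which encodes a secreted C1q-domain protein, was at 27.9, 40.6, 25 and 31.4 UPM, with 0 UMIs in the Cdh5/Pecam1-positive cells of Ctrl E8.5 and cKO E9.5. Tmem255a (19.1, 39.3, 125 and 54.1 UPM) and Lcp1, an actin-bundling protein of blood and endothelial cells (19.7, 32.2, 52.2 and 19.5 UPM), completed the 8 highest. In each of these genes all 4 libraries of members were above all 4 libraries of other cells.

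Blood markers were at or near 0 in the members, and epithelial and neural markers were low. The summed level of 15 blood genes was 2.35, 2.25, 6.36 and 5.66 UPM in the members, and the erythroid and myeloid genes Gata1, Klf1, Gfi1b, Nfe2, Hba-x, Ptprc and Csf1r had 0 UMIs in the members of all 4 libraries. In the other cells the blood genes summed to 2.48, 2.29, 64.9 and 6.14 UPM, close to the members except in Ctrl E9.5. The 9 epithelial genes summed to 33.8, 29.9, 28.6 and 12.6 UPM against 990 to 1422 UPM in the Epcam-positive cells, and Cdh1, Foxa2 and Shh had 0 UMIs. The 8 neural and neural crest genes summed to 14.1, 24.5, 4.99 and 13.2 UPM, against 19.2, 17.9, 36.1 and 55.3 UPM in the other cells. In cKO E8.5, where their sum was higher in the members, 19 of the 22 UMIs of Sox10 lay in 3 members. The 8 genes of mesenchyme and somite were not near 0, with summed levels of 208, 214, 119 and 272 UPM in the members against 358, 502, 495 and 776 UPM in the other cells. Against the other cells 5 of 6 epithelial genes and 4 of 7 genes of mesenchyme and somite were more than 2-fold lower in all 4 libraries. The early mesoderm genes summed to 17.1, 21.9, 18.2 and 15.7 UPM, with Mesp1, an early marker of the cardiac lineage, at 3, 0, 1 and 1 UMIs.

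Genes of beating muscle were also present, and at E9.5 most UMIs of Myl7 lay in few cells. Myl7, the atrial myosin light chain, was at 59.7, 90.8, 212 and 194 UPM in the members, close to its level in the other cells at E9.5 (217, 216, 217 and 124 UPM). In cKO E9.5, 288 of its 308 UMIs lay in 1 of the 18 members with any, and in Ctrl E9.5, 446 of 467 lay in 3 of 21. In cKO E8.5 1 member held 171 of 282 UMIs, whereas in Ctrl E8.5 the highest member held 22 of 203 and 99 members had at least 1. Members with exactly 1 Etv2 UMI held Myl7 at 147, 815, 975 and 904 UPM, and members with 2 or more held it at 50.6, 36.3, 21.0 and 10.3 UPM. The same members with exactly 1 Etv2 UMI held Kdr at 56.2, 106, 102 and 27.6 UPM against 176, 260.3, 196 and 168 UPM in the rest. Whether such barcodes held 2 cells was not tested.

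**Figure D2:**
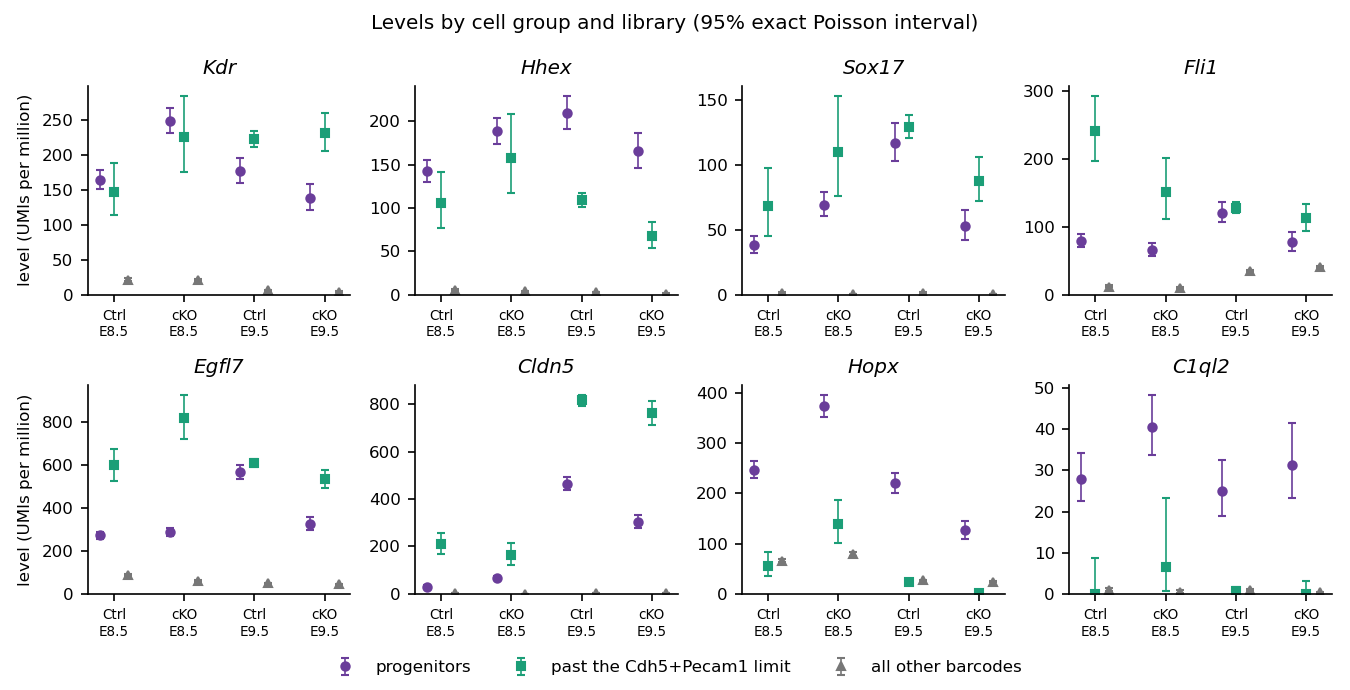
Levels (UPM) of Kdr, Hhex, Sox17, Fli1, Egfl7, Cldn5, Hopx and C1ql2 in the members, the Cdh5/Pecam1-positive cells and the other cells, with 1 point per library and exact Poisson 95% intervals. The Kdr points of the members lie from 139 to 249.5 UPM and those of the other cells from 4.26 to 21.3 UPM, and the Hopx and C1ql2 points of the members stand above both other kinds of cells in all 4 libraries.

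Compared with the Cdh5/Pecam1-positive cells of the same library, the members held lower levels of genes of formed endothelium and higher levels of cardiopharyngeal mesoderm genes. Of 40 vascular genes 12 were more than 2-fold lower in all 4 libraries and 0 higher, beside 1.30% of all genes lower and 1.18% higher. The 12 were the factor Bcl6b, the receptors and signal genes Acvrl1, Calcrl, Eng, S1pr1 and Tie1, and the endothelial surface or secreted proteins Cd34, Cd93, Ecscr, Emcn, Icam2 and Plvap. Since the 2 kinds of cells were parted by Cdh5 and Pecam1, genes that go with these were partly chosen too, and the counts are a description. Of 8 cardiopharyngeal genes with enough UMIs, 4 were more than 2-fold higher in all 4 libraries and 0 lower, namely Hopx, Nkx2-5, Tbx1 and Tcf21. No gene of the S phase or G2/M lists differed more than 2-fold in any comparison, with 10 genes in each list.

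Kdr and Hhex were not among these 12 genes. The log2 ratio of Kdr, members over Cdh5/Pecam1-positive cells, was 0.15, 0.15, -0.33 and -0.74. That of Hhex was 0.43, 0.25, 0.95 and 1.28, so its level was higher in the members of every library, and past 2-fold in cKO E9.5. Egfl7, a secreted protein of endothelial cells, was at 272, 286, 566 and 326 UPM in the members and at 598, 819, 608 and 535 UPM in the Cdh5/Pecam1-positive cells. Cldn5, the main claudin of endothelial tight junctions, was at 28.8, 67.0, 464 and 305 UPM against 209, 164, 816 and 762 UPM. Tie1, an endothelial receptor tyrosine kinase, had 2, 7, 22 and 9 UMIs in the members (0.588, 2.25, 9.99 and 5.66 UPM) against 48.4 to 61.4 UPM in the Cdh5/Pecam1-positive cells. For Egfl7, Cldn5 and Tie1 every library of members was below the Cdh5/Pecam1-positive cells of the same library.

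Genes that were higher in the members than in the Cdh5/Pecam1-positive cells are given next, the listed gene Hopx first and then the 8 that ranked highest. Hopx, a homeodomain-only protein of cardiac progenitors, was at 248, 373, 220 and 126 UPM in the members, at 56.2, 139, 24.3 and 1.64 UPM in the Cdh5/Pecam1-positive cells and at 66, 78.7, 26.9 and 24.2 UPM in the other cells, so it was highest in the members in all 4 libraries. Its UMIs were spread over 121, 98, 73 and 39 members. Tcf21, a factor of branchiomeric muscle and epicardial progenitors, was at 39.7, 40.2, 27.2 and 22.0 UPM against 7.03, 3.22, 1.51 and 0 UPM, a level near that of the other cells (26.1, 32.7, 25.1 and 19.5 UPM). The follistatin gene Fst was at 212, 87.9, 34.5 and 49.7 UPM against 39.8, 6.45, 7.99 and 2.46 UPM, and below the other cells (449, 261, 157 and 74.6 UPM) in all 4 libraries. The Wnt receptor gene Fzd2 (111, 104, 61.7 and 66 UPM against 21.1, 9.67, 13.1 and 9.0) and the carbonic anhydrase gene Car14 (97.6, 93.7, 60.8 and 56.6 UPM against 14.1, 12.9, 9.80 and 10.6) showed the same side. With Tcf21, Fst, Fzd2 and Car14, the 8 that ranked highest were completed by Cadm1, Ebf2, Ptn and C1ql2. Tbx1 itself was at 30.5, 19.3, 37.1 and 50.8 UPM in the Cdh5/Pecam1-positive cells, below its level in the members of each library.

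The same order ran through the barcodes that met the rule apart from the limit on Cdh5 and Pecam1, sorted by their UMIs of these 2 genes and pooled over genotypes. There were 236, 29, 18 and 6 such cells with 0, 1 to 2, 3 to 5 and 6 or more UMIs at E8.5, and 143, 54, 76 and 82 at E9.5, with median depths from 21716.5 to 23150 and from 17908 to 23160.5 UMIs. At E9.5 the genotypes were unevenly spread, with 78 Ctrl and 65 cKO cells at 0 UMIs against 142 and 16 with more than 2. The part of genotype in the order was not tested. The classes were cut on genes of the rule, so genes that go with these were partly chosen too, and the levels are a description. Egfl7 went from 223 to 793, 706 and 695 UPM at E8.5 and from 392 to 666, 665 and 600.3 UPM at E9.5, with its step between 0 and 1 to 2 UMIs and thus inside the members. Cldn5 went from 24.7 to 255, 171 and 269 UPM and from 265 to 758, 817 and 841 UPM. Tie1 was higher from class to class, on few cells in the last classes at E8.5, from 0.170 to 12.7, 34.1 and 59.8 UPM and from 3.25 to 21.6, 43.3 and 57.1 UPM. Aplnr, the apelin receptor, did likewise, from 15.1 to 52.2, 78.0 and 134 UPM and from 19.8 to 78.4, 226 and 267 UPM. Hopx was lower from class to class, from 316 to 226, 136 and 29.9 UPM and from 220.03 to 73.5, 37.6 and 18.2 UPM. Tbx1 was at 82.2, 28.5, 36.5 and 7.47 UPM at E8.5 and 107, 39.2, 47.1 and 44.5 UPM at E9.5, highest where neither Cdh5 nor Pecam1 was seen. Kdr showed no such order, with 200.2, 249.9, 146 and 142 UPM at E8.5 and 164, 152, 208 and 212 UPM at E9.5.

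**Figure D3:**
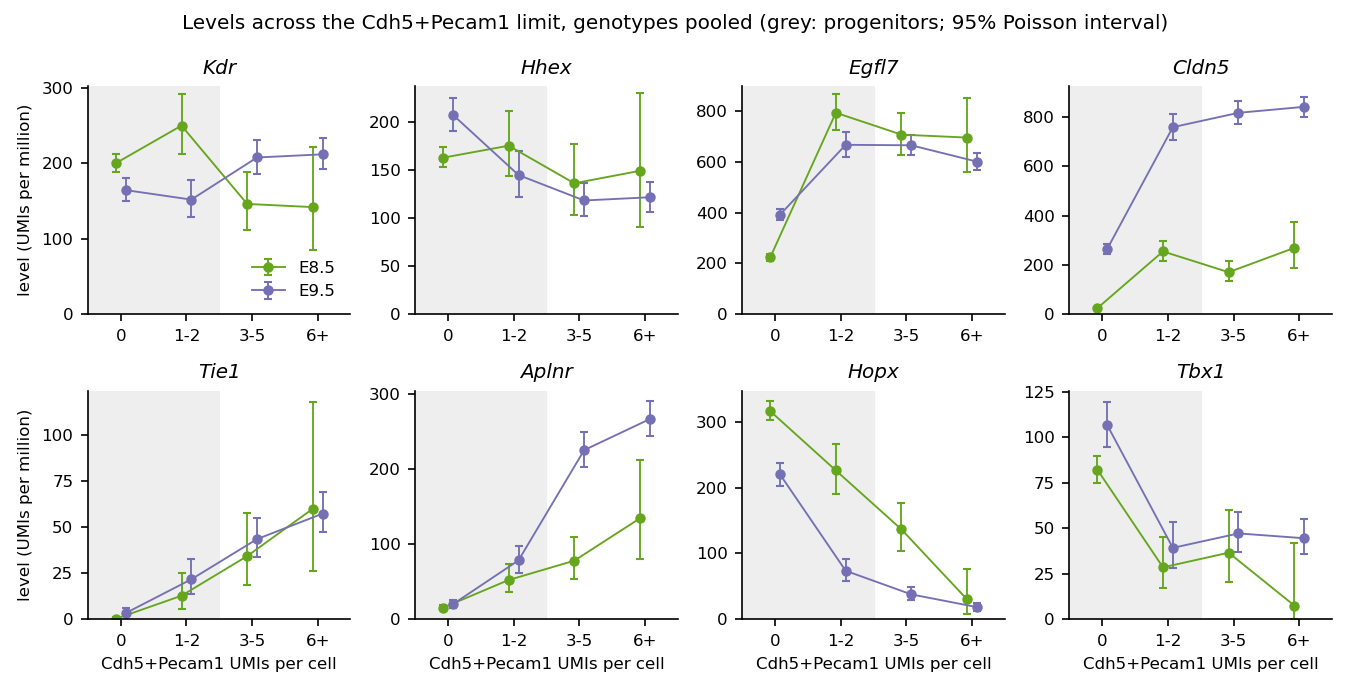
Levels (UPM) of named genes in barcodes that met the rule apart from its limit on Cdh5 and Pecam1, grouped by their UMIs of these 2 genes (0, 1 to 2, 3 to 5, 6 or more) at E8.5 and E9.5, genotypes pooled, with exact Poisson 95% intervals. Members are the first 2 groups (grey ground), and the last 2 groups at E8.5 hold 18 and 6 cells. The last 2 groups at E9.5 are mostly Ctrl cells. Tie1 reaches 59.8 and 57.1 UPM in the last group, and Hopx is lowest there at 29.9 and 18.2 UPM.

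The DNA before the start of 3 of these genes is shown because ETV2 belongs to the ETS family, whose members bind around the letters GGAA: Hhex as the label gene not used by the rule, and Egfl7 and Tie1 as genes with different steps along Cdh5 and Pecam1. Each window holds the 250 bases before the annotated start, 5′ to 3′ on the strand of the gene, from RefSeq on GRCm38.p6. Capitals mark GGAA or its reverse complement TTCC. The windows are chr19:37434591-37434840 on the plus strand for Hhex, chr2:26580833-26581082 on the plus strand for Egfl7 and chr4:118489850-118490099 on the minus strand for Tie1.
Hhex: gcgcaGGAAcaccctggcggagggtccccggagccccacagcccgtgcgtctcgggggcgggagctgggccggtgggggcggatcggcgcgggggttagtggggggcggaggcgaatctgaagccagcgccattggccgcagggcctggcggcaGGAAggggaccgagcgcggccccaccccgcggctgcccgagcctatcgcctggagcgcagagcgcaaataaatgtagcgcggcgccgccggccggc
Egfl7: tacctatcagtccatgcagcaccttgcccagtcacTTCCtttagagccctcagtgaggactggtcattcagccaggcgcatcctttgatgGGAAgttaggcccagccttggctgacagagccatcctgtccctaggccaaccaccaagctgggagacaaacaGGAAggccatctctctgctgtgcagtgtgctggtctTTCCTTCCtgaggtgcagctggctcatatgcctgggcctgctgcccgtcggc
Tie1: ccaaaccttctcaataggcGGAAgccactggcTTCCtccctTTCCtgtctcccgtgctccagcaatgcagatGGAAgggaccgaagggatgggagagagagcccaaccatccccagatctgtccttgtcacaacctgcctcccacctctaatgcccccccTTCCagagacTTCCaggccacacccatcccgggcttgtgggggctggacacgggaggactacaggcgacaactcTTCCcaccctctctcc
The Hhex window held 2 matches, and 76.8% of the 32851 windows of the table had as many. The Egfl7 window held 5 (18.0% had as many) and the Tie1 window 7 (3.82%). Over all windows 93.4% held at least 1 match with a median of 3, and over the 34 windows of the 27 vascular genes with an entry the share was 94.1%, also with a median of 3. A match is a description of letters and not a binding site.

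Kdr, Hhex and Sox17 were higher in members with more Etv2 UMIs at both stages, while most vascular genes had no such order. Members were grouped into 1 to 4, 5 to 14 and 15 or more Etv2 UMIs, a grouping chosen after the data were seen, with 88, 81 and 96 cells at E8.5 and 90, 64 and 43 at E9.5, genotypes pooled. Their median depth was also higher from group to group, from 20895.5 to 22243 and 25446.5 UMIs at E8.5 and from 17370 to 17885 and 21794 at E9.5, and the part of depth in the choice of groups was not tested. Kdr was at 98.3, 205 and 292 UPM at E8.5 and 101, 189 and 231 UPM at E9.5. Hhex was at 85.6, 154 and 237 UPM and at 108, 223 and 294 UPM. Sox17 was at 28.9, 49.0 and 75.9 UPM and at 43.8, 112 and 143 UPM. Of 39 vascular genes with enough UMIs at both stages, 6 were higher from group to group at both (Gata2, Hhex, Kdr, Nrp1, Nrp2 and Sox17) and 1, Mef2c, lower, beside 5.07% of all genes higher. None of the 10 genes of differentiated endothelium was among the 6. The groups were cut on a gene of the rule, so genes that go with it were partly chosen too, and the levels are a description. Fli1, at 58.7, 93.8 and 67.9 UPM and at 90.6, 132 and 88.9 UPM, and Flt1, at 31.3, 53.0 and 48.8 UPM and at 46.2, 87.1 and 55.2 UPM, were highest in the middle group at both stages. Elk3 was ordered upwards at E8.5 (63.6, 85.2 and 97.1 UPM) and highest in the middle group at E9.5 (101, 172 and 131 UPM), and Sox18 was the other way round (25.9, 42.8 and 40.4 UPM, then 24, 52.3 and 62.4 UPM).

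Hopx and Fev, both higher in the members than in both other kinds of cells, were also higher from group to group, and C1ql2 was lowest in the first group. Hopx was at 193, 268 and 432 UPM at E8.5 and at 116, 188 and 281 UPM at E9.5. C1ql2 was at 11.2, 44.4 and 44.4 UPM and at 3.0, 38.3 and 57.2 UPM, and Fev at 11.7, 21.4 and 27.6 UPM and at 9.60, 22.7 and 40.9 UPM. Cldn5 ran the other way at E8.5 (64.1, 50 and 30.8 UPM) and was highest in the middle group at E9.5 (332, 537 and 347 UPM). Egfl7 was at 209, 306 and 314 UPM and at 326, 621 and 521 UPM, so it was lowest in the members with the fewest Etv2 UMIs. Tbx1 had no common order (85.1, 77.0 and 70.3 UPM, then 93.0, 60.1 and 114 UPM). Myl7 was highest in the first group at both stages, at 135 and 442 UPM, but this rested on few members. At E8.5 171 of its 277 UMIs in that group lay in 1 member. At E9.5 most of its 736 UMIs there lay in a few members with exactly 1 Etv2 UMI, 288 of them in 1 member.

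**Figure D4:**
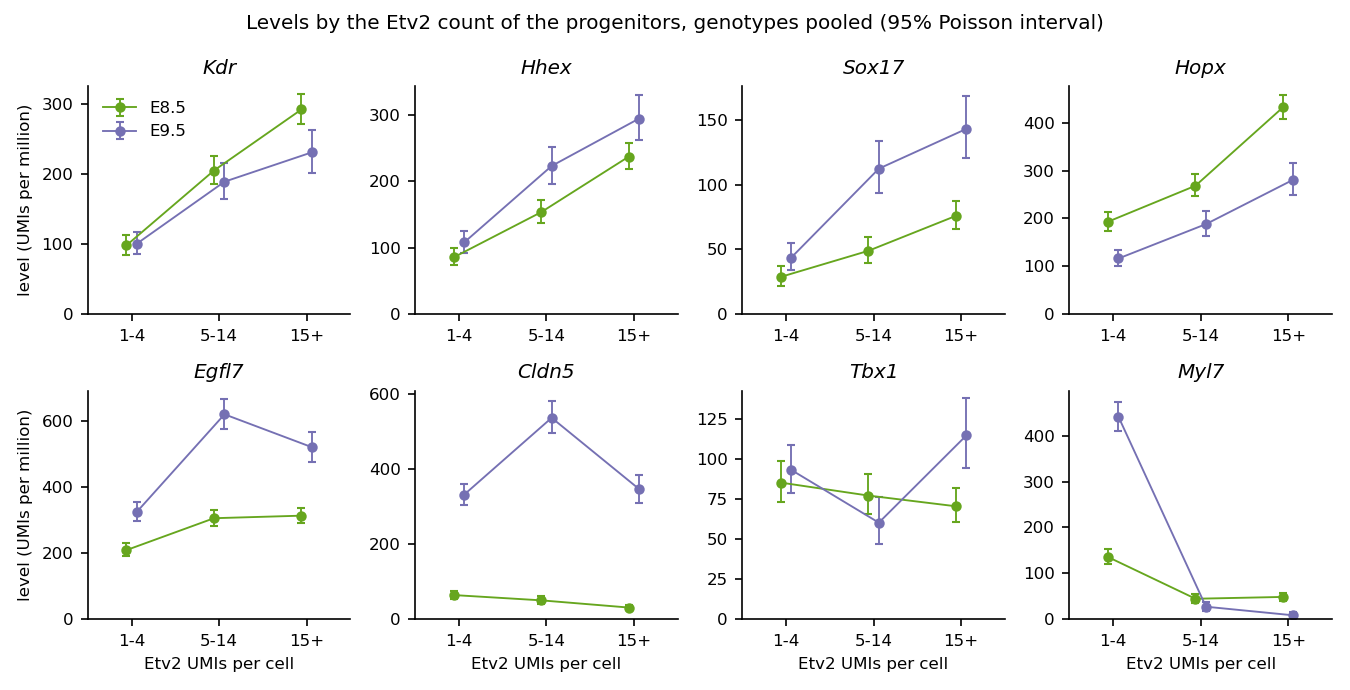
Levels (UPM) of named genes in members with 1 to 4, 5 to 14 and 15 or more Etv2 UMIs at E8.5 and E9.5, genotypes pooled, with exact Poisson 95% intervals. Kdr goes from 98.3 to 292 UPM at E8.5 and from 101 to 231 UPM at E9.5. Myl7 is highest in the first group, where most of its UMIs lie in few members.

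Members without a UMI of Tal1 or Lmo2 passed the rule on Etv2 alone and held lower levels of several vascular genes. There were 40 of them at E8.5 beside 225 with at least 1 such UMI, and 18 beside 179 at E9.5, genotypes pooled. They were unevenly spread over the genotypes at E9.5, with 6 of 117 Ctrl and 12 of 80 cKO members. The part of genotype in the values was not tested. The split was made on genes of the rule, so genes that go with these were partly chosen too, and the levels are a description. Kdr was at 161 UPM in members without such a UMI and 212 UPM in those with one at E8.5, and at 73.6 and 169 UPM at E9.5. Hhex differed more, with 18.4 against 188 UPM and 13.4 against 206 UPM. Egfl7 was at 62.9 against 314 UPM and 46.9 against 501 UPM, and Fli1, an ETS factor of blood and endothelium, at 5.43 against 84.0 UPM and 16.7 against 109.9 UPM. Isl1, a LIM homeobox factor of the second heart field, was at 25 against 35.1 UPM at E8.5 and 100.4 against 32.6 UPM at E9.5, so its order was not the same at the 2 stages. Tbx1 was at 92.2 against 74.5 UPM and 134 against 84.7 UPM, and Hopx at 167 against 331 UPM and 194 against 179 UPM.

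From E8.5 to E9.5 in Ctrl, genes of formed endothelium were higher in the members. Of 41 vascular genes 32 were more than 2-fold higher and 0 lower, with a median log2 ratio of 1.59, beside 11.7% of all genes higher, 3.05% lower and a median of 0.25 over all 9420 genes. The share of higher among all genes past 2-fold was 79.3%, and it was 59.6% with TMM factors, 56.0% with DESeq2 size factors and 50.8% after the same ratio in the other cells was taken off. The transcription factors had 10 of 15 higher, the receptors and signal genes 11 of 15 and differentiated endothelium 11 of 11. Members with no Cdh5 or Pecam1 UMI gave 27 higher of 39, with a median of 1.37.

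Cldn5 had the highest of these ratios among genes with many UMIs, from 98 UMIs (28.8 UPM) in Ctrl E8.5 to 1023 (464 UPM) in Ctrl E9.5, a log2 ratio of 4.01 (3.71 to 4.32), with 35 and 77 members holding a UMI. Cd34, a sialomucin of haematopoietic and endothelial cells, went from 9.70 to 106 UPM (3.45, 2.92 to 4.02), and Icam2, an adhesion molecule of endothelium, from 12.6 to 107 UPM (3.08, 2.61 to 3.59). Mmrn2 (4.14, 3.03 to 5.50), Tie1 (4.09, 2.06 to 7.22), Rasip1 (2.64, 2.24 to 3.05) and Plxnd1 (2.27, 1.74 to 2.83) were also past 4-fold. In the other cells of the same libraries these ratios were 0.54 for Cldn5, 0.48 for Cd34, 0.25 for Icam2, 1.36 for Mmrn2, 0.37 for Tie1, 0.07 for Rasip1 and -0.09 for Plxnd1. Of 10 endocardial, arterial and venous genes 6 were higher, among them the Notch ligand gene Dll4 at 2.07 and the Notch target gene Hey1 at 1.95, and 1 was lower, the natriuretic peptide receptor gene Npr3 at -1.14, although Dll4 was at -0.28 and Npr3 at 0.87 once the ratio in the other cells was taken off. Lyl1, a relative of Tal1, was 2.08 (1.55 to 2.63) higher on the log2 scale. By contrast the label genes were within 2-fold, Kdr at 0.11 (-0.08 to 0.30) and Hhex at 0.56 (0.37 to 0.74), and Etv2, a gene of the rule, was at -0.32. The interval of Hhex lay above the median of all genes. In the other cells Kdr went from 21.3 to 5.97 UPM and Hhex from 5.65 to 2.75 UPM. Both ratios were therefore past 2-fold higher once the other cells were taken off.

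The genes of the second heart field and mesenchyme differed in both directions. Of 16 cardiopharyngeal genes in Ctrl 4 were more than 2-fold higher and 2 lower, among them Nkx2-5 higher at 1.28 (0.71 to 1.86) and Fgf8 lower at -2.01 (-2.85 to -1.27). Of 6 genes of mesenchyme and somite 1 was higher and 4 lower, with the paraxial mesoderm factor Tcf15 at -3.96 (-5.43 to -2.80) and Prrx1 at -1.61 (-2.17 to -1.10). In cardiomyocyte genes 7 of 8 were higher, and Myl7, at 1.83 (1.59 to 2.07), rested at E9.5 on the 3 members named above and turned to -1.27 in members with at least 2 Etv2 UMIs. The 3 highest of the ranked genes were Nts, whose 59 UMIs in Ctrl E9.5 included 30 in 1 member, Fcgr3, which differed by 0.14 (-0.51 to 0.77) in the members and by -3.70 in the other cells, and Tie1. Of 4 ligands of VEGF receptors 1, Pgf, was past 2-fold at 1.03 (0.41 to 1.66), of 5 Notch genes Notch1 was higher at 1.20 (0.62 to 1.79) and 2 were lower, and of 7 BMP genes 3 were higher, including Bmp4 at 2.5 (1.92 to 3.11).

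Between the cKO libraries the same comparison gave fewer such genes. Of 38 vascular genes 9 were more than 2-fold higher and 0 lower, with a median of 0.47, beside 4.86% of all genes higher and 5.98% lower. They included Cldn5 at 2.19 (1.95 to 2.43), Cd34 at 2.38 (1.76 to 3.04), Icam2 at 2.01 (1.41 to 2.62), Emcn at 1.21 (0.93 to 1.5) and Lyl1 at 1.54 (0.87 to 2.22), but Icam2 was at -0.39 and Emcn at -0.52 once the ratio in the other cells was taken off. The ratio of Kdr was -0.84 (-1.07 to -0.63) and that of Hopx -1.56 (-1.79 to -1.35), although Hopx was at 0.14 after the other cells were taken off. In the other cells Kdr went from 20.7 to 4.26 UPM between the cKO libraries, so its ratio also turned positive after that subtraction. No test of the difference between the genotypes was possible with 1 library per group.

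At E8.5 the members of cKO and Ctrl differed in few vascular genes, with more of them higher in cKO than lower, as among all genes. The study's sample table gives slightly higher somite counts for the cKO embryos at E8.5, so genotype and age cannot be told apart. Of 39 vascular genes 4 were more than 2-fold higher in cKO and 2 lower, beside 3.36% of all genes higher and 1.52% lower, with a median of 0.32 for the vascular genes and 0.03 for all genes. Members with no Cdh5 or Pecam1 UMI gave 2 higher of 36, with a median of 0.13. Of all genes past 2-fold 68.9% were higher, and 57.1% were after the other cells were taken off. The label genes were higher in cKO, Kdr at 164 against 249.5 UPM (0.60, 0.44 to 0.76) and Hhex at 142 against 188 UPM (0.40, 0.23 to 0.58), with -0.04 and -0.60 in the other cells. Cldn5 was at 28.8 against 67.0 UPM (1.22, 0.86 to 1.58), with 22.3% of the Ctrl and 31.5% of the cKO members holding a UMI, beside 0 and 8.33% of the Epcam-positive cells. Sox18 was at 22.9 against 51.5 UPM (1.17, 0.77 to 1.58), Plxnd1 at 11.5 against 26.7 UPM (1.22, 0.66 to 1.81) and Unc5b at 5.29 against 12.2 UPM (1.21, 0.36 to 2.11). Sox17 was at 38.2 against 69.2 UPM (0.86, 0.54 to 1.18). The lower genes were Calcrl, the receptor of adrenomedullin, at 21.2 against 7.08 UPM (-1.58, -2.34 to -0.87), and Erg, with 20 against 9 UMIs.

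Among the other lists at E8.5, 3 of 17 cardiopharyngeal genes were higher in cKO and 2 lower. Foxf1 had 1 against 38 UMIs, of which 33 lay in 1 member, and the 23 UMIs of S100a3 in cKO E8.5 all lay in 1 member. Fgf10 was at 10.00 against 3.54 UPM (-1.5, -2.63 to -0.48) and Msc, a factor of branchiomeric muscle, at 8.23 against 2.58 UPM (-1.68, -3.02 to -0.50). Fst was at 212 against 87.9 UPM (-1.27, -1.48 to -1.07), with -0.79 in the other cells, and Notch1 was at 12.6 against 26.1 UPM (1.04, 0.49 to 1.61). In the BMP list 2 of 7 genes were higher, Bmp2 with 8 against 25 UMIs and Smad6 with 8 against 21, and Bmp4 was lower with 32 against 13 UMIs. In the cardiomyocyte list 3 of 8 genes were higher, among them Tnnt2 at 1.24 and Actc1 at 1.10, which were at -0.96 and -0.78 in members with at least 2 Etv2 UMIs. No gene of the mesenchyme, VEGF ligand or endocardial, arterial and venous lists was past 2-fold, with 6, 4 and 9 genes. The ranked genes lowest in cKO relative to the other cells were led by Cldn11 (16 against 4 UMIs) and Tnfaip6 (20 against 3 UMIs), both with few counts.

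At E9.5 the vascular genes lay lower in the cKO members. Of 41 vascular genes 13 were more than 2-fold lower and 0 higher, with a median of -0.80, beside 8.34% of all genes lower, 2.20% higher and a median of -0.22 over all 8762 genes. Members with no Cdh5 or Pecam1 UMI gave 11 lower of 39, with a median of -0.59. With TMM and DESeq2 factors the vascular median was -0.63 and -0.60, and it was -0.43 after the other cells were taken off. Of all genes past 2-fold 20.9% were higher, and 37.2, 40.0 and 44.1% were under these 3 treatments. The 13 were 4 of 15 transcription factors (Sox7, Sox17, Bcl6b and Erg), 3 of 15 receptors and signal genes (Rasip1, Nrp1 and Flt1) and 6 of 11 genes of differentiated endothelium (Esam, Mmrn2, Icam2, Ecscr, Cd34 and Cd93). Erg had 39 against 0 UMIs in the members, but it was also at 3.27 UPM in the Cdh5/Pecam1-positive cells of cKO E9.5 against 41.4 UPM in those of Ctrl E9.5, and the difference and the other gene table of that library cannot be told apart.

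Esam, an adhesion molecule of endothelial junctions, was at 171 UPM in the members of Ctrl E9.5 and 49.0 UPM in those of cKO E9.5 (-1.80, -2.17 to -1.44), with -1.64 in the other cells. Rasip1, a small GTPase effector needed for vessel lumens, was at 119 against 38.4 UPM (-1.63, -2.06 to -1.23) and Mmrn2 at 36.3 against 6.92 UPM (-2.39, -3.45 to -1.48). Icam2 was at 107 against 46.5 UPM (-1.20, -1.60 to -0.82), Cd34 at 106 against 50.3 UPM (-1.07, -1.46 to -0.70) and Flt1, a decoy VEGF receptor, at 78.5 against 36.5 UPM (-1.11, -1.56 to -0.67). Ecscr and Flt1 stood at 0.43 and -0.09 in the other cells. Sox17, at 117 against 52.8 UPM (-1.15, -1.52 to -0.79), and Sox7, at 32.7 against 10.7 UPM (-1.61, -2.47 to -0.84), were lower still in the other cells, and turned to 1.17 and 0.38 once these were taken off. The other cells are a mixture that differed between the E9.5 libraries. Epcam-positive cells were 13.4% of the barcodes in Ctrl and 3.21% in cKO, and the blood genes summed to 64.9 and 6.14 UPM in the other cells. The part of this mixture in the subtracted ratios was not tested. Among the genes not past 2-fold, Egfl7 was at 566 against 326 UPM (-0.79, -0.95 to -0.65), Cldn5 at 464 against 305 UPM (-0.61, -0.77 to -0.45), Kdr at 177 against 139 UPM (-0.35, -0.59 to -0.11) and Hhex at 209 against 165 UPM (-0.34, -0.56 to -0.12). Kdr and Hhex thus lay close to the median of all genes. In the other cells Kdr was at 5.97 against 4.26 UPM and Hhex at 2.75 against 1.13 UPM. Both ratios turned positive once the other cells were taken off. Sox18 was at 40.4 against 45.3 UPM (0.16, -0.30 to 0.63). Elk3, an ETS factor, was at 140.3 against 116 UPM and, differed by -0.28 (-0.55 to -0.01).

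**Figure D5:**
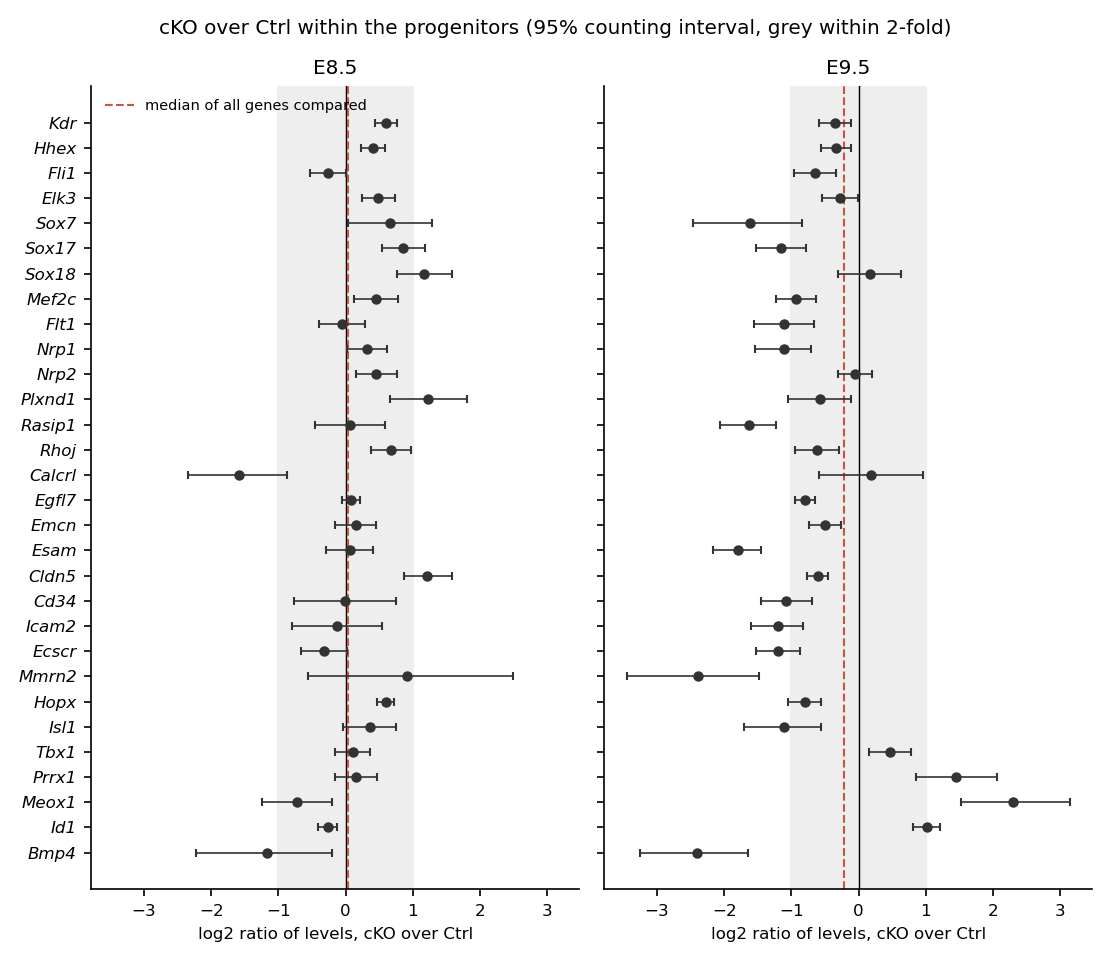
Log2 ratio cKO/Ctrl of UPM in the members at E8.5 and E9.5 for the vascular and other named genes, with exact 95% intervals (counting error only), the median of all genes as a dashed line and grey for values within 2-fold. At E9.5 Esam lies at -1.80 and Rasip1 at -1.63, while Kdr and Hhex lie at -0.35 and -0.34; at E8.5 Kdr and Hhex lie at 0.60 and 0.40.

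The other lists lay to either side at E9.5. Of 17 cardiopharyngeal genes 5 were lower and 1 higher: Isl1 was at 49.0 against 22.6 UPM (-1.12, -1.70 to -0.56), with -1.03 in the other cells, Nkx2-5 at 31.3 against 14.5 UPM (-1.12, -1.86 to -0.42), with -1.32 there and 0.20 once these were taken off, and Hand2 at 13.6 against 5.03 UPM. Fgf10 had 20 against 0 UMIs, a log2 ratio of -2.27 when the 0 is set to 3 UMIs. Arg1 was the higher gene, at 19.1 against 45.9 UPM (1.27, 0.70 to 1.85), and Hopx was at 220 against 126 UPM (-0.80, -1.04 to -0.56). Of 6 genes of mesenchyme and somite 4 were higher, with a median of 1.41: Meox1 (18 against 64 UMIs, 2.30, 1.53 to 3.14), Foxd1 (15 against 32), Prrx1 (37 against 73) and Col1a1 (8 against 15). In the other cells they were at 1.52, 0.18, 0.97 and 0.61. The summed level of the list was 119 UPM in the members of Ctrl E9.5 and 272 UPM in those of cKO E9.5.

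Of 7 BMP genes Id1, a target of BMP signalling, was higher at 160 against 322 UPM (1.01, 0.81 to 1.21), and the ligand genes Bmp4 (117 against 16 UMIs, -2.40, -3.25 to -1.64) and Bmp2 (30 against 7 UMIs, -1.63, -3.06 to -0.41) were lower. The 117 UMIs of Bmp4 were spread over 27 members. Of the 9 endocardial, arterial and venous genes Gja4, an arterial connexin, was lower with 40 against 3 UMIs, and Aplnr was at 49.5 against 16.3 UPM (-1.60, -2.27 to -0.97), with -1.76 in the other cells and 0.16 once these were taken off. No Notch gene was past 2-fold, of 5, and 1 of 8 cardiomyocyte genes was, the titin gene Ttn, which was lower. Tal1, a gene of the rule, was at 139 against 62.3 UPM (-1.16, -1.5 to -0.83), with -2.48 in the other cells.

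The genes ranked lowest in cKO E9.5 relative to the other cells were led by Cd38, with 34 against 1 UMIs, and held the muscle genes Csrp3 (30 against 1 UMIs, 29 of the 30 in 3 members) and Unc45b (30 against 2 UMIs). Of the other ranked genes Fbxl7, Ccdc85c, Foxl2 and Olfr889 at the lower end and Hgs, Pnp, Fdx1l and Srp54b at the upper had 0 UMIs in the members of 1 of the E9.5 libraries and at most 0.196 UPM in its other cells, so genotype and gene table cannot be told apart for them. Over both stages 14 of 8556 genes were more than 2-fold higher in cKO at both, 20 lower at both, 28 higher at E8.5 and lower at E9.5, and 8 the reverse. Among 114 listed genes outside the rule these counts were 0, 3, 3 and 0.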

How the data were processed

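RNA of GFP-sorted cells was measured in 4 pooled droplet libraries, 1 each of Ctrl and cKO at E8.5 and E9.5. The deposited values are raw UMI counts per gene and barcode. Per the submitters' processing notes, the authors aligned reads to mm10 (GRCm38) with Cell Ranger 3.1.0, counted UMIs and kept the barcodes called as cells, although the headers of both E8.5 matrices name an earlier version. The matrices hold 25391654 to 104773150 UMIs. The cKO E9.5 matrix has 1 barcode fewer than the sample table of the study gives. It lists 31053 genes and the rest 27998, so the 27514 shared identifiers were used, 1027 of which carry another symbol there. They hold 99.4 to 99.9% of the UMIs. Whether an aligned read could be assigned to a gene depends on that table, and overlapping or near-identical genes are uncertain.

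Members, Cdh5/Pecam1-positive cells, Epcam-positive cells (at least 3 Epcam UMIs, no more than 2 of Cdh5 and Pecam1) and other cells were taken by raw UMIs. The Ctrl and cKO groups come from the sample labels. UMIs were summed per kind of cell and library and divided by their total. Log2 ratios carry exact conditional binomial, levels exact Poisson, shares Clopper-Pearson and differences of shares Newcombe 95% intervals, which cover counting error only. With 1 library per group no test was run, and a gene was counted as higher or lower past 2-fold with at least 20 UMIs in both sums together between libraries, or in each library within libraries. A sum of 0 was set to 3 UMIs in ratios. No doublet caller was run. The ratio step was tested on simulated sums. Thinning was checked on some barcodes of Ctrl E8.5, and only for the number of UMIs left per cell.

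The members and all gene lists were chosen with earlier results of these data known. The genes named are those of the lists, plus the 8 highest and 8 lowest per comparison. Rankings used the ratio minus that of the other cells, or within libraries the ratio nearest 0 of 4 of the same sign. Rule genes, Xist, Tsix, Y-linked, mitochondrial, haemoglobin, ribosomal protein and predicted genes were left out of them. Alternatives were TMM factors (edgeR 4.0.16), DESeq2 1.42.0 size factors, equal weight per cell, other limits of the rule, barcodes above 2 times the median UMIs of their library left out, barcodes with at least 5000 UMIs, cells thinned to 10000 UMIs, subtraction of the other cells and no minimum count. Python 3.11.15, numpy 2.4.6, scipy 1.17.1, pandas 2.3.3, matplotlib 3.10.9 and R 4.3.3 were used. Gene positions and promoter sequences came from RefSeq on GRCm38.p6.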

Additional observations from a re-analysis of the deposited data

Results flagged for a closer look

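In 118 listed genes the cKO/Ctrl log2 ratio in the members was set against the median of all genes at each stage, which was 0.03 at E8.5 and -0.22 at E9.5. In 12 genes the whole 95% counting interval lay above the median at E8.5 and below it at E9.5, and in 5 genes the reverse. These are 10.2 and 4.24% of the listed genes, beside 1.41 and 4.34% of all 8556 genes held to the same criterion. The criterion depends on UMI counts, and the lists were chosen with earlier results of these data known. They also hold genes of the rule and genes partly chosen with the members, so the shares are a description. The difference between the stages was not tested, since each group was 1 library. The values below are the ratios at E8.5 and E9.5, with no median taken off.

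Among the vascular genes of the first kind, Cldn5 was at 1.22 at E8.5 and -0.61 at E9.5, Sox17 at 0.86 and -1.15, and Sox7 at 0.65 and -1.61. The receptor genes Flt4 and Eng were at 0.72 and -0.75 and at 0.68 and -0.77. The GTPase gene Rhoj was at 0.67 and -0.62, Plvap, a protein of endothelial diaphragms, at 0.50 and -0.86, and Mef2c at 0.46 and -0.93. Lmo2, a gene of the rule, was at 0.44 and -0.52. Outside the vascular lists, Bmp2 was at 1.78 and -1.63, Hopx at 0.59 and -0.80, and the troponin gene Tnni1 at 0.54 and -1.0. The E8.5 value of Tnni1 rests on few members: 41 of its 118 UMIs in cKO E8.5 lay in 1 member, and members with 2 or more Etv2 UMIs held it at 24.3 UPM in Ctrl and 23.5 UPM in cKO. With the ratio in the other cells taken off, the E9.5 values of Cldn5 (0.14), Flt4 (1.75), Lmo2 (0.27), Sox17 (1.17) and Sox7 (0.38) and the E8.5 values of Mef2c (-0.12) and Plvap (-0.20) changed sign.

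The reverse held for the BMP target genes Id1 (-0.27 and 1.01), Id2 (-0.15 and 0.59) and Id3 (-0.54 and 0.26), for the somite factor gene Meox1 (-0.72 and 2.30) and for the mitotic gene Ube2c (-0.15 and 0.0069), whose E9.5 value is close to 0 and turned negative in 3 alternatives.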

How the results depend on the processing

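No paired analysis was possible because each group was 1 library and the labels give no shared replicate numbers. Counting error, and not the spread between embryos, is all that the intervals cover, so no difference between libraries can be assigned to genotype or stage. Classes with few cells limit the depth behind low genes: 13 to 21 Cdh5/Pecam1-positive cells at E8.5. Causes of the movements below were not tested, except that fewer cells or genes enter where a limit is tighter or a minimum is dropped.

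The share of members was 8.51% in Ctrl E8.5 and 0.942% in cKO E9.5 with at least 5 UMIs of Etv2, Tal1 and Lmo2. In Ctrl E9.5 it was 1.71% with at least 2 Etv2 UMIs, 3.36% with up to 5 UMIs of Cdh5 and Pecam1, 1.43% with none and 2.65% after thinning, which gave 0.973% in cKO E9.5. The cKO minus Ctrl difference at E9.5 was then -1.92 points with up to 5 UMIs, -0.393 (-0.809 to 0.0067) with none, which is within counting error, and -1.68 after thinning. Thinning also brings barcodes under the upper limits of the rule, so it is not a check of depth alone.

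For the counts of genes past 2-fold, in cKO against Ctrl at E8.5, 1 vascular gene was lower with equal weight per cell, 2 were higher without Cdh5 or Pecam1 UMIs, and 10 were higher and 0 lower after subtraction of the other cells, when 180 of all genes were higher (319 in the report's setting). At E9.5, of all genes 480 were lower with TMM, 452 lower and 301 higher with DESeq2 factors and 242 lower after subtraction (731 lower and 193 higher as reported), and of the vascular genes 8 were lower with DESeq2 factors and 2 higher after subtraction. Between stages in Ctrl 713 genes were higher and 483 lower with TMM, 664 and 521 with DESeq2 factors, and 337 higher after subtraction (1099 and 287 as reported). In cKO subtraction gave 235 higher and 316 lower, with 2 vascular genes lower. Members without Cdh5 or Pecam1 UMIs had 147 genes and 19 vascular genes below the Cdh5/Pecam1-positive cells, and 59 genes below the other cells. With no minimum count, 780 genes were higher and 508 lower at E8.5, 555 and 1321 at E9.5, 1792 and 623 between stages in Ctrl, 929 and 992 in cKO, 169 below the Cdh5/Pecam1-positive cells and 425 above the other cells.

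Among printed ratios past 2-fold, in members with at least 2 Etv2 UMIs the sign turned for Actc1 (-0.78) and Tnnt2 (-0.96) at E8.5 and for Myl7 between stages in Ctrl (-1.27). The smaller ratio of Tnni1 at E8.5 turned there as well. After subtraction the sign turned at E9.5 for Aplnr (0.16), Nkx2-5 (0.20), Sox17 (1.17), Sox7 (0.38) and Tal1 (1.31), between stages in Ctrl for Dll4 (-0.28) and Npr3 (0.87) and in cKO for Emcn (-0.52), Hopx (0.14) and Icam2 (-0.39). Among smaller ratios, those of Kdr and Hhex at E9.5 and of Kdr between stages in cKO also turned. The kinds of cells among the other cells differed between libraries, so a subtracted ratio also carries that difference. Of the printed ratios between libraries, 9 moved past their counting interval with TMM and 108 did not, 10 and 107 with DESeq2 factors, 3 and 114 with equal weight per cell, 3 and 110 without barcodes above 2 times the median UMIs, and 16 and 97 without Cdh5 or Pecam1 UMIs. After subtraction 57 moved, the 10 past 2-fold named above turned sign and 48 did neither. With at least 2 Etv2 UMIs these numbers were 7, 3 and 105. Shares of members with a UMI moved in 374 of the values after thinning and stayed within their interval in 346.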
